A study of Mus musculus with 12 samples.

Results

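The genes described here are 9 transcription factors of the ETS family, Ets1, Ets2, Erg, Fli1, Elf1, Elf4, Elk3, Etv6 and Gabpa, measured by RNA sequencing in mouse leukaemias. They are 9 of 41214 genes in the count tables. They were picked on these measurements, because Ets1, which has been described as a target of the repressor Gfi1, was lower in the KD leukaemias. Their differences between the genotypes are therefore given as a description, and no test of them is used as support. The related gene Spi1 was left out of the choice.

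All leukaemias arose in mice of the strain C57/BL6 NUP98-HOXD13, so that both genotypes carried the NUP98-HOXD13 fusion, a nuclear pore gene joined to a homeobox gene that causes myelodysplasia and leukaemia in mice. The genotypes differed at Gfi1. The 2 mice called KI had the genotype Gfi1 KI/wt (het in the RNA labels), and the 2 mice called KD had Gfi1 KD/KD (homo in the RNA labels). The labels give the material as leukaemic cells, with 1 RNA library per mouse, and give no age, treatment or sorting step. No Gfi1 wild-type group is analysed here, and the labels do not say how the KI and KD alleles were built, so it is not known whether transcripts of an altered allele are counted under Gfi1. With 2 mice per genotype, every standard deviation given below rests on 2 leukaemias per group, each of which may be its own clone. The standard errors of the fit also borrow from the spread of other genes. The exact intervals rest on the read counts of 1 library and not on mice.

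ETS proteins share a DNA-binding domain, the ETS domain, that contacts sites with a GGAA core, and different members can bind many of the same sites. The family holds activators such as Ets1, Gabpa and Elf1, repressors such as Etv6, and factors such as Elk3 that switch with ERK signalling. In blood, Erg, Fli1 and Etv6 are known for their roles in stem cells and megakaryocytes, and Ets1 for its role in T, B and natural killer lymphocytes. Gfi1 is a zinc finger repressor of blood progenitors that binds sites with an AATC core.

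KI replicates 1 and 2 had 4581593 and 10869534 counts assigned to genes, and KD replicates 1 and 2 had 11934542 and 10263454. The 3 predicted loci with the most counts took 39.0% and 44.4% of them in KI, against 19.4% and 21.2% in KD. KI replicate 1 stood apart: 88.3% of its uniquely aligned reads fell in no gene, against 63.2% to 68.3% in the other 3, and 1691 chemosensory receptor genes, of the Olfr, Vmn and Tas families, summed to 921 CPM (counts relative to library size) there and to 162 to 184 CPM in the other 3. KI replicate 1 and KD replicate 1 had Y-linked transcripts (361 and 819 counts of Eif2s3y), and KI replicate 2 and KD replicate 2 had Xist (6613 and 9795 counts), so each genotype held 1 library of either kind. Log2 CPM correlated across genes at 0.86 between the KI libraries and at 0.96 between the KD libraries, and genes are not independent replicates. Myeloid markers were abundant in every library: the summed level of 12 genes including Mpo, Ptprc and Itgam was 3865 and 4414 CPM in KI and 4825 and 5229 CPM in KD. Of the 12, 8 had positive and 4 negative log2 fold changes, KD over KI, with a median of 0.12. The progenitor marker Cd34 had 32.5 and 6.41 CPM in KI against 68.4 and 120 CPM in KD. Csf1r, the receptor of a macrophage growth factor, had 254 and 98.8 CPM against 505 and 290 CPM. Kit, a progenitor receptor, had 55.2 and 52.7 CPM against 34.1 and 27.0 CPM. For Csf2rb the values were 153 and 178 CPM against 343 and 324 CPM. edgeR called 0 of the 12, and Cd34, Kit and Csf2rb were the 3 at an unadjusted p under 0.05.

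Gfi1 (ENSMUSG00000029275) had 156 and 750 counts in KI and 102 and 13 counts in KD, or 36.2 and 89.0 CPM against 7.22 and 1.12 CPM. Both KD libraries lay below both KI libraries. CPM values here are scaled by TMM, a trimmed mean of ratios between libraries, and compare a gene across libraries, not one gene with another. The CPM of the chemosensory receptor genes above are an exception, scaled by library size only. For Gfi1 the log2 fold change, KD over KI, was -3.89 ± 0.95 (standard error of the fit).

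Of the 9 ETS genes, all passed the filter on low counts, with 61 to 2547 counts per library. On the TMM scale, both KD libraries lay below both KI libraries for Ets1, Ets2, Erg and Fli1, and above them for Elf4 and Etv6, while Elf1, Elk3 and Gabpa overlapped. Over all 13822 genes tested, both KD libraries lay below both KI libraries for 23.5% of genes and above them for 14.5%, and since the members were chosen on this contrast nothing is read from their counts of 4 and 2. The median log2 fold change of the 9 genes was -0.27, with 4 positive and 5 negative, beside a median of -0.06 over all genes tested, with 6151 positive and 7671 negative. The quasi-likelihood test of edgeR called 0 of 13822 genes after Benjamini-Hochberg adjustment (0% of genes), with 1331 genes at an unadjusted p under 0.05, limma-voom also called 0, and DESeq2 called 142 genes, 5 higher and 137 lower, or 1.09% of the genes it gave an adjusted p. Of the 9 genes, edgeR called 0 and DESeq2 called 1, Ets1, which edgeR also called without KI replicate 2, without KD replicate 1 and with no filter on low counts. Ets1 was the gene that led to the choice, so nothing is read from these calls.

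**Figure D1:**
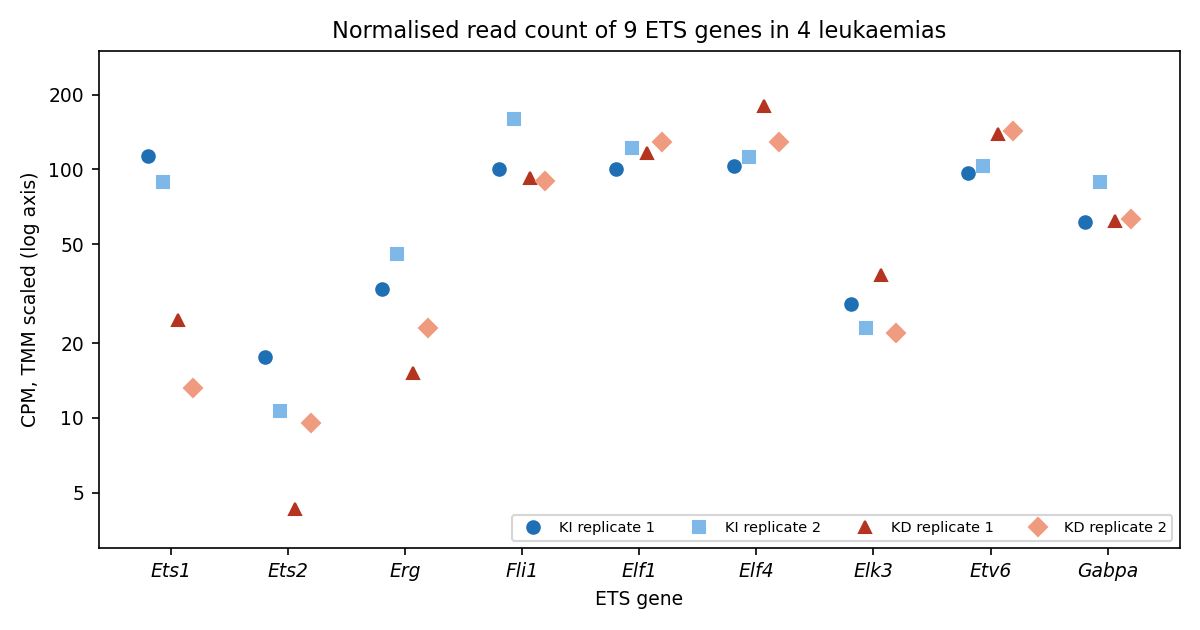
Normalised read count (CPM, TMM scaled, log axis) of each of the 9 ETS genes in each library; circles and squares are the 2 KI mice, triangles and diamonds the 2 KD mice, with no averaging. Ets1 shows the widest gap of the 9, from 113 and 89.0 CPM in KI to 24.8 and 13.2 CPM in KD.

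Ets1 (ENSMUSG00000032035, chr9:32636241-32757820 on GRCm38), the founding member of the family and a regulator of lymphocyte development, had 488 and 750 counts in KI and 350 and 153 counts in KD. That was 113 and 89.0 CPM in KI against 24.8 and 13.2 CPM in KD. Both KD leukaemias were low, KD replicate 2 the lowest, and the groups were apart by more than the gap within either. The group means were 101 ± 17.1 and 19.0 ± 8.17 CPM (SD, n = 2), and the fitted log2 fold change was -2.41 ± 0.41, which is 5.31-fold lower in KD. Ets1 ranked 15th of 13822 genes by p in this fit, a rank that the choice of the gene already used. With each library left out in turn the log2 fold change ran from -2.93 to -2.03, and it was -2.0 when libraries were scaled by size alone.

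Ets2 (ENSMUSG00000022895, chr16:95702407-95721049), the close paralogue of Ets1 that Ras and ERK signalling phosphorylates, was measured on few counts, 76 and 90 in KI and 61 and 110 in KD. Its normalised counts were 17.6 and 10.7 CPM in KI and 4.32 and 9.503 CPM in KD. The groups did not overlap on this scale, but KI replicate 2 and KD replicate 2 were close to each other, and the groups overlapped when libraries were scaled by size alone. Its log2 fold change was -1.03 ± 0.57. It was -0.52 without KI replicate 1 and -1.71 without KD replicate 2.

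The ratio of Ets1 to Ets2 counts within a library needs no scaling between libraries. It was 6.42 and 8.33 in KI and 5.74 and 1.39 in KD, with 95% exact intervals of 5.03 to 8.29, 6.69 to 10.5, 4.36 to 7.66 and 1.08 to 1.79 that cover counting error only. KD replicate 2 was apart from the other 3 libraries, and KD replicate 1 had an interval that overlapped both KI intervals. In KD replicate 1 both paralogues were low, and in KD replicate 2 Ets1 was low while Ets2 lay near its level in KI replicate 2.

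Erg (ENSMUSG00000040732, chr16:95359169-95586600, minus strand), a factor that blood stem cells need, had 142 and 384 counts in KI and 214 and 266 in KD. Its normalised counts were 32.9 and 45.6 CPM in KI and 15.1 and 23.0 CPM in KD. Both KD leukaemias were below both KI leukaemias, and they stayed so under each of 5 ways of scaling the libraries: TMM, RLE, upper quartile, library size only, and library size without the 3 predicted loci. Its log2 fold change was -1.04 ± 0.37, with a range from -1.37 to -0.73 when each library was left out in turn and -0.61 with library size only.

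Fli1 (ENSMUSG00000016087, chr9:32422204-32543432), the paralogue of Erg and an activator of megakaryocyte genes, had 100 and 160 CPM in KI and 92.6 and 89.9 CPM in KD. KI replicate 2 alone was high, and the other 3 libraries lay between 89.9 and 100 CPM. The log2 fold change of -0.51 ± 0.32 became -0.06 without KI replicate 2 and -0.06 with library size only, where the groups overlapped. The Erg to Fli1 count ratio was 0.329 and 0.285 in KI and 0.164 and 0.256 in KD, with 95% exact intervals of 0.270 to 0.398, 0.254 to 0.319, 0.141 to 0.189 and 0.222 to 0.293. KD replicate 1 was apart from the other 3 libraries, and the interval of KD replicate 2 overlapped both KI intervals.

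Ets1 and Fli1 are neighbours on chromosome 9, 92809 bp apart, and Ets2 and Erg are neighbours on chromosome 16, 115807 bp apart (RefSeq, GRCm38.p6). The Ets1 to Fli1 ratio was 1.13 and 0.556 in KI and 0.268 and 0.147 in KD. Their 95% exact intervals were 0.990 to 1.29, 0.508 to 0.609, 0.237 to 0.301 and 0.123 to 0.174. The libraries were all distinct in this ratio beyond counting error, and both KD leukaemias were below both KI leukaemias. The Ets2 to Erg ratio was 0.535 and 0.234 in KI and 0.285 and 0.414 in KD, and here the groups overlapped.

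Elf1 (ENSMUSG00000036461, chr14:79481174-79582491), an activator found across blood lineages, had 100 and 122 CPM in KI and 117 and 129 CPM in KD. The groups overlapped, and the log2 fold change was 0.14 ± 0.27. With the other 4 ways of scaling both KD libraries lay above both KI libraries, and library size only gave 0.58.

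Elf4 (ENSMUSG00000031103, chrX:48411049-48463132, minus strand), the paralogue of Elf1 known for roles in natural killer cells and in stem cell quiescence, had 443 and 944 counts in KI and 2547 and 1496 counts in KD. Its normalised counts were 103 and 112 CPM in KI and 180 and 129 CPM in KD. Both KD leukaemias were above both KI leukaemias under all 5 scalings, KD replicate 1 the highest. Its log2 fold change of 0.53 ± 0.29 became 0.27 without KD replicate 1. Elf4 lies on the X chromosome, and the libraries with Xist had 112 CPM (KI) and 129 CPM (KD), those with Y-linked transcripts 103 CPM (KI) and 180 CPM (KD). The part of sex in these values was not tested. The Elf4 to Elf1 ratio was 1.03 and 0.920 in KI and 1.55 and 1.00 in KD, and the interval of KD replicate 1, 1.45 to 1.65, lay above those of the other 3 libraries, which reached at most 1.17.

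Etv6 (ENSMUSG00000030199, chr6:134035700-134270158, plus strand), a repressor that blood stem cells need and that is also called Tel, had 415 and 870 counts in KI and 1968 and 1652 counts in KD. Its normalised counts were 96.2 and 103 CPM in KI and 139 and 143 CPM in KD. The libraries of each genotype lay close together and the groups were apart under all 5 scalings. Group means were 99.7 ± 4.93 and 141 ± 2.45 CPM (SD, n = 2), and the log2 fold change was 0.50 ± 0.25, or 1.41-fold higher in KD. Leaving out each library in turn gave 0.48 to 0.62. Beside Fli1, the Etv6 count ratio was 0.961 and 0.645 in KI and 1.505 and 1.59 in KD.

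Elf4 and Etv6 were the members with both KD libraries higher under all 5 scalings, and the letters before their start sites are shown for that reason. The RefSeq windows are 250 bases, 5′ to 3′ in the direction of the gene, from GRCm38.p6 at chr6:134035450-134035699 (plus strand) for Etv6 and at chrX:48463133-48463382 (minus strand) for Elf4, the outer of its 2 RefSeq start sites. Capitals mark the ETS core GGAA, or TTCC where the core is on the other strand.
Etv6: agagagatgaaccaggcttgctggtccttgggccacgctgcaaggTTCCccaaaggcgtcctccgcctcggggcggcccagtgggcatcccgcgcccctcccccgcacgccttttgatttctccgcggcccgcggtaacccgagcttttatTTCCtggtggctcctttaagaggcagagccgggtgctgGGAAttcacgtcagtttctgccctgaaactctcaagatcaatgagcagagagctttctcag
Elf4: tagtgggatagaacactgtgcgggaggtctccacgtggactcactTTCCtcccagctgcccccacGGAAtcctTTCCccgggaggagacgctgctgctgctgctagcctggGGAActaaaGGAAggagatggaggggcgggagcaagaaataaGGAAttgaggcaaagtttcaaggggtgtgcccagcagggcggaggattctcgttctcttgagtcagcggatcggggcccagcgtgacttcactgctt
The Etv6 window held 3 such cores and the Elf4 window 6, while the inner Elf4 window, not printed, held 2, against a mean of 2.91 per window over 32851 promoters. The GFI1 core AATC, searched on both strands, was found 1 time for Etv6 and 2 times for Elf4, and it was in 4 of the 11 windows of the members and in 69.0% of all windows. Ets1 and Fli1 had no window in the promoter set used here, so the motif counts do not cover them. The longer GFI1 motif AAATCAC was in neither, and 2.75% of all windows held it. A match is a run of letters and shows no binding.

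Elk3 (ENSMUSG00000008398, chr10:93247415-93311159, minus strand), also called Net, is a ternary complex factor that represses serum response genes until ERK phosphorylates it. It had 28.8 and 23.0 CPM in KI and 37.6 and 22.0 CPM in KD. KD replicate 1 was high and KD replicate 2 the lowest of the 4, so the groups overlapped under all 5 scalings. The log2 fold change of 0.21 ± 0.39 became -0.23 without KD replicate 1.

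Gabpa (ENSMUSG00000008976, chr16:84834891-84863783, plus strand) encodes the DNA-binding subunit of GABP, which serves many housekeeping and mitochondrial genes. It had 61.5 and 89.0 CPM in KI and 61.8 and 63.2 CPM in KD. KI replicate 2 was high and the other 3 libraries were nearly equal, so the groups overlapped. The log2 fold change of -0.27 ± 0.30 turned to 0.09 without KI replicate 2 and to 0.18 with library size only, a setting that lifted the log2 fold changes of all 9 genes. Of the 9 genes, Gabpa alone changed the side on which its KD libraries lay with the scaling, below the KI libraries with upper quartile scaling and with library size without the 3 predicted loci, and above them with library size only.

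Of the 7 members with a RefSeq window (all but Ets1 and Fli1), 11 windows in all, the Gabpa window was the only one with CGGAAG, the core with flanking bases that ETS proteins prefer. It is shown with that match and the GGAA cores in capitals, from chr16:84834874-84835123 on the plus strand of GRCm38.p6.
Gabpa: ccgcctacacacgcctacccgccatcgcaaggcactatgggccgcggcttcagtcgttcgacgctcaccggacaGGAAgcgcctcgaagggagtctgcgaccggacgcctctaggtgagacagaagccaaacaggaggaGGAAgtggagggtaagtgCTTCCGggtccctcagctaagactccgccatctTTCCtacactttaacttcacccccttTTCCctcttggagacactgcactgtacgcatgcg
This window precedes a RefSeq start site that lies inside the gene span given above, so most of the window is within the gene. The match is on the minus strand, 93 bases before that start site at its outer end. CGGAAG, on either strand, was in 13.6% of all windows, and the GGAA core in 9 of the 11 member windows and in 93.4% of all windows. The longer ETS motif CCGGAAGT was in 0 of the 11 windows and in 2.88% of all windows.

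The share of each gene in the summed counts of the 9 genes needs no scaling factor. Ets1 made up 17.3% (95% exact interval 15.9% to 18.8%) and 11.8% (11.0% to 12.6%) of these counts in KI. It made up 3.68% (3.31% to 4.08%) and 2.13% (1.81% to 2.49%) in KD. The group means were 14.6% ± 3.91 and 2.91% ± 1.10 (SD, n = 2), so the libraries of one genotype differed by more than counting error, and the genotypes by more than that. The summed counts behind the shares were 2817 and 6356 in KI and 9502 and 7193 in KD.

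The share of Erg was 5.54% ± 0.708 in KI and 2.98% ± 1.02 in KD, with no overlap between genotypes. That of Fli1 was 18.3% ± 4.15 and 14.1% ± 0.500, also without overlap. Its 95% exact intervals did overlap, 14.0% to 16.7% in KI replicate 1 against 13.7% to 15.3% in KD replicate 2. The share of Elf4 was 15.3% ± 0.618 in KI and 23.8% ± 4.25 in KD, and that of Etv6 14.2% ± 0.738 and 21.8% ± 1.59, higher in KD without overlap. The share of Elf1 was 15.7% ± 0.570 in KI and 19.0% ± 2.37 in KD, also without overlap. Its 95% exact intervals overlapped, 15.2% to 17.1% in KI replicate 2 against 16.6% to 18.1% in KD replicate 1. The shares of Ets2, Elk3 and Gabpa overlapped between genotypes. Shares sum to the whole, so a lower share of Ets1 raises the others.

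**Figure D2:**
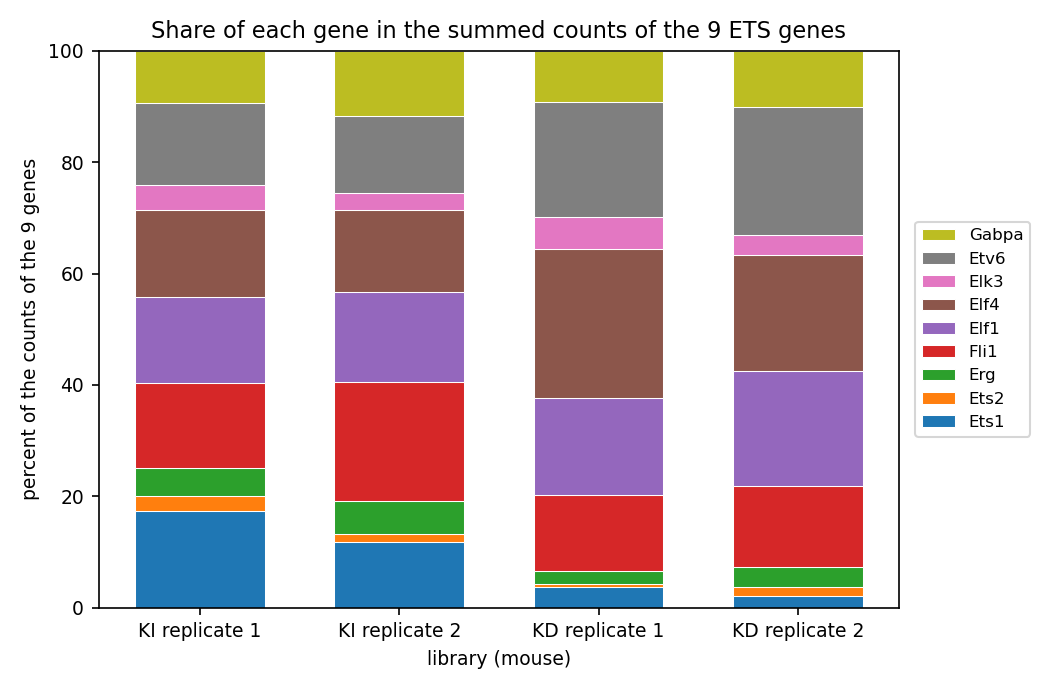
Share of each ETS gene (percent) in the summed counts of the 9 genes, 1 bar per library. Ets1 at the foot of the bars takes 17.3% and 11.8% in KI and 3.68% and 2.13% in KD, and Etv6 and Elf4 take more of the KD bars.

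The median log2 fold change of all genes tested was -0.06 with TMM and 0.37 with library size only, and every member moved upwards with it. Relative to that median, Ets1, Ets2, Erg, Fli1 and Gabpa stayed below and Elf1, Elf4, Elk3 and Etv6 above under both. Ets1, Ets2, Erg, Fli1, Elf1, Elf4 and Etv6 kept their sign under all 13 alternative settings, while Elk3 turned in 1 and Gabpa in 2.

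**Figure D3:**
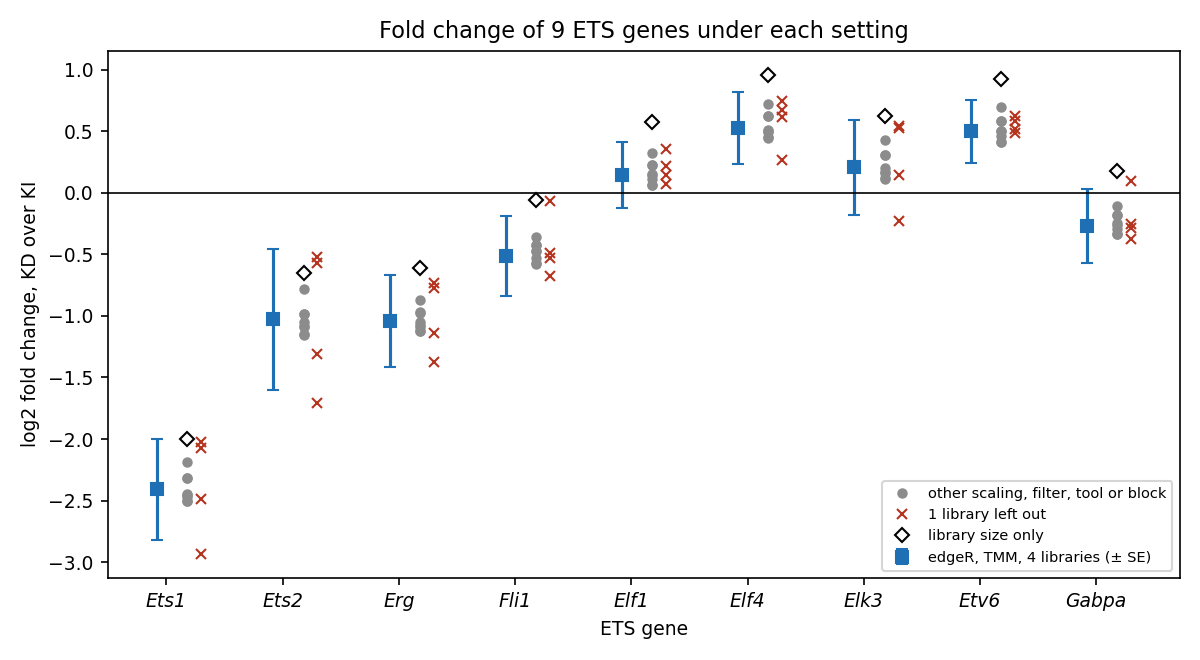
Log2 fold change, KD over KI, of each ETS gene: blue squares are the edgeR fit on 4 libraries with bars of 1 standard error, grey dots other scalings, filters, tools and the replicate block, open diamonds library size only, crosses fits without 1 library. Ets1 lies between -2.93 and -2.0 in all of the alternatives, and Elk3 and Gabpa cross 0 in some.

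The other ETS genes were 17, of which 16 were in the count tables and 11 passed the filter. edgeR called 0 of them, with 1 at an unadjusted p under 0.05, limma-voom 0 and DESeq2 0. Of the 11, 3 had positive and 8 negative log2 fold changes. In both KD libraries 1 (Elf2) lay higher and 4 (Ehf, Etv4, Etv5 and Fev) lower, beside 14.5% and 23.5% of all genes tested. Etv4 (8 and 11 counts in KI, 2 and 6 in KD) and Fev (14 and 12, 9 and 7) passed the filter through their KI counts alone. Their negative sign and lower side were set by the filter, and nothing is read from them. The 5 with at least 5 CPM in every library, Elf2, Elk1, Elk4, Erf and Etv3, differed little, with log2 fold changes from -0.13 to 0.11, and all but Elf2 turned sign under at least 1 alternative setting. Elf2, the closest relative of Elf1, had 74.2 and 76.0 CPM in KI and 76.3 and 85.4 CPM in KD. Elk4, a ternary complex factor like Elk3, had 90.0 and 113 CPM in KI and 93.7 and 91.5 CPM in KD.

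The other 6 were scarce: Ehf, Etv4, Etv5, Fev, Spib and Spic had log2 fold changes from -3.14 to -1.19, and 5 of them were highest in KI replicate 1. Ehf, an epithelial ETS factor, had 14.6 and 2.61 CPM in KI against 0.708 and 1.21 CPM in KD. KI replicate 1 is the library with the high receptor gene level, whose part in these values was not tested. Without it the log2 fold change of Ehf was -1.32, of Spic -0.01 and of Spib 0.13, and the median of the 11 moved from -1.19 to -0.01. Etv5 and Etv4, targets and effectors of receptor tyrosine kinase signalling, had -1.19 ± 0.70 and -2.23 ± 1.03 on at most 5.81 CPM. Elf3, Elf5, Etv1, Etv2 and Spdef did not pass the filter, with at most 33 counts in a library.

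**Figure D4:**
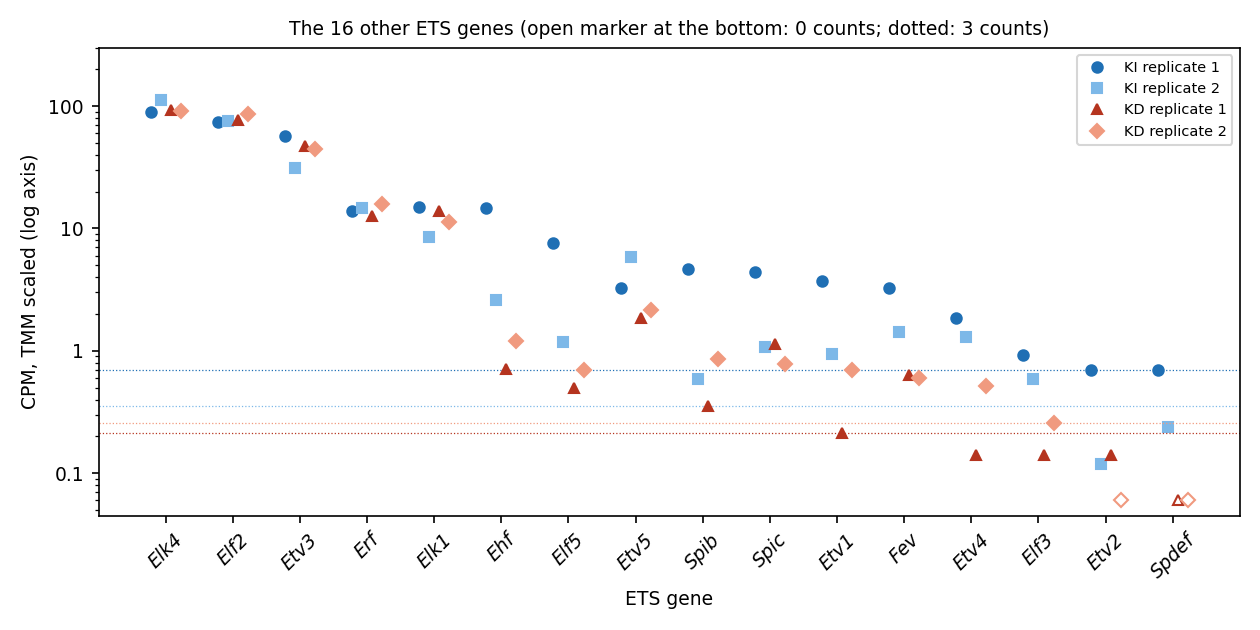
Normalised read count (CPM, TMM scaled, log axis) of the 16 other ETS genes in each library, in the order of their highest value; dotted lines mark 3 counts in each library and open symbols 0 counts. The 5 genes on the left have the highest values in every library but KI replicate 1, where Ehf reaches them, and most of the scarce genes on the right are highest in KI replicate 1.

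Genes that act with the ETS factors were taken from lists of known partners, inputs and targets. Of 11 DNA-binding partners, 7 had positive and 4 negative log2 fold changes, and their median was 0.08. edgeR called 0, with 0 at an unadjusted p under 0.05. Runx1, which binds DNA together with Ets1, had 121 and 76.8 CPM in KI and 131 and 144 CPM in KD. Tal1, which shares enhancers with Erg and Fli1 in stem cells, had 20.2 and 13.9 CPM in KI and 7.15 and 0.605 CPM in KD, lower in both KD leukaemias, with a log2 fold change of -2.12 ± 1.05. Gabpb2, which encodes a partner subunit of Gabpa, was level at 206 and 234 CPM in KI and 217 and 232.1 CPM in KD. Of 5 corepressors of Etv6, 4 were positive and 1, L3mbtl1, negative at -1.42 ± 0.82, with Ncor1 at 0.18 ± 0.29. edgeR called 0 of these, with 0 at an unadjusted p under 0.05.

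Of 10 genes of the ERK cascade, whose kinases phosphorylate Ets1, Ets2 and Elk3, 8 were positive and 2 negative (median 0.10). Mapk3, which encodes ERK1, had 30.6 and 31.6 CPM in KI and 60.8 and 41.0 CPM in KD, higher in both KD leukaemias, with a log2 fold change of 0.71 ± 0.32. Of 8 feedback inhibitors that ERK signalling induces, 1 was positive and 7 negative (median -1.14). Dusp6, an ERK phosphatase, had 32.7 and 74.9 CPM in KI and 27.9 and 12.96 CPM in KD, with a log2 fold change of -1.40 ± 0.56. Spry4 and Dusp4 had 4.64 CPM or less in every library. Spry4 passed the filter through its KI counts alone, so its negative sign was set by the filter. The median of the 8 became -0.21 without KI replicate 1. Of 9 early response genes of SRF and the Elk factors, 5 were positive and 4 negative, and their median of 0.13 became -0.58 without KD replicate 1. Egr1 had 6.96 and 5.93 CPM in KI and 3.96 and 1.12 CPM in KD, and Mcl1, a survival gene, had 481 and 271 CPM in KI and 478 and 347 CPM in KD. edgeR called 0 genes of these 3 lists, with 0 at an unadjusted p under 0.05.

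Of 10 GABP targets, 7 were positive and 3 negative. Their median was 0.14, and it was -0.06 without KI replicate 1 and -0.02 without KD replicate 2. Atp5b, a subunit of the mitochondrial ATP synthase, had 312 and 873 CPM in KI and 462 and 740 CPM in KD, and Skp2, a ubiquitin ligase subunit of the cell cycle, had 19.9 and 15.8 CPM in KI and 22.8 and 27.6 CPM in KD. Of 8 lymphoid targets of Ets1, 2 were positive and 6 negative. Their median of -1.503 became 0.64 without KI replicate 1. Il7r, on both lists, had 22.7 and 3.08 CPM in KI and 2.19 and 1.56 CPM in KD. Cd3e, part of the CD3 signalling complex of T cells, had 6.26 and 37.3 CPM in KI and 1.34 and 0.518 CPM in KD. Ighm, the immunoglobulin heavy chain gene, had 59.6 and 82.5 CPM in KI and 97.0 and 151 CPM in KD, the opposite direction. Of 4 megakaryocyte and endothelial targets of Erg and Fli1 that passed the filter, of 12, 2 were positive and 2 negative. Gp1bb, among the negative ones, passed through its KI counts alone, so its sign was set by the filter. The median of the 4, -0.48, was 0.08 without KI replicate 1 and -1.73 without KD replicate 1. Itga2b, the alpha subunit of the platelet fibrinogen receptor, had 12.99 and 6.29 CPM in KI and 25.5 and 2.68 CPM in KD. edgeR called 0 genes of the 3 target lists, with 4 at an unadjusted p under 0.05, Il7r counted under both its lists.

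Ets1 is also a lymphocyte gene, and the libraries are bulk RNA, so fewer cells of a type and less RNA per cell cannot be told apart. The summed level of 15 T cell markers was 125 and 87.3 CPM in KI and 23.3 and 35.8 CPM in KD. In KI replicate 2, Cd3e alone gave 37.3 CPM of that sum, from 314 counts. All 14 T cell markers that passed the filter were negative, with a median of -1.73 that was -0.95 without KI replicate 1. Of them, 8 had both KD libraries below both KI libraries, beside 23.5% of all genes tested. Of the 15, 9 were under 10 CPM in every library, and the receptor alpha constant gene Trac had 7, 2, 3 and 1 counts. The summed level of 13 natural killer and innate lymphoid markers was 221 and 197 CPM in KI and 62.6 and 67.3 CPM in KD, most of it from Il18rap, an interleukin 18 receptor chain, at 117 and 171 CPM in KI and 41.0 and 49.1 CPM in KD. All 8 that passed the filter were negative, with a median of -1.71 that was -0.54 without KI replicate 1. Of them, 4 had both KD libraries below both KI libraries, beside the same 23.5% of all genes tested. The killer cell receptor gene Ncr1 had 6 and 0 counts in KI and 1 and 0 counts in KD. Without Il18rap the sum of the other 12 was 104 and 25.6 CPM in KI and 21.5 and 18.2 CPM in KD. The part of lymphoid cells in the Ets1 values was not tested.

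The 11 B cell markers summed to 54.3 and 34.5 CPM in KI and 19.7 and 25.1 CPM in KD, with Pax5 at 6, 7, 4 and 0 counts. All 4 that passed the filter were negative, with a median of -1.45 that became 0.32 without KI replicate 1. Of them, 0 had both KD libraries below both KI libraries, beside 23.5% of all genes tested. Cd79b, the B cell marker with the highest mean, had 10.4 and 28.1 CPM in KI and 13.1 and 16.8 CPM in KD. The 12 endothelial markers, the cell type in which Erg, Fli1, Ets1 and Elk3 are also used, summed to 84.4 and 58.3 CPM in KI and 65.5 and 91.7 CPM in KD. Pecam1 alone gave 35.3 and 36.8 CPM of the KI sums and 54.2 and 80.8 CPM of the KD sums. It was higher in both KD leukaemias and made up most of the KD sums, so the sums do not show the direction of the other markers. Cdh5 had 5, 2, 1 and 3 counts. Of 4 that passed the filter, 1 (Pecam1) was positive and 3 (Emcn, Vwf and Egfl7) negative (median -1.19, and -0.57 without KI replicate 1). Emcn passed the filter through its KI counts alone, so its negative sign was set by the filter. The 12 megakaryocyte markers summed to 90.4 and 33.5 CPM in KI and 73.7 and 49.6 CPM in KD, with Gp9 at 5, 4, 0 and 0 counts and Gp6 at 3, 0, 1 and 0 counts. Of 5 that passed the filter, 2 were positive and 3 negative (median -1.23, and 0.18 without KI replicate 1). Gp1bb and Gp5, both negative, passed the filter through their KI counts alone, so their sign was set by the filter. Cdh5, Gp9 and Gp6 were at or near 0 in all 4 libraries, and were named for that. On each of the endothelial and megakaryocyte lists, 9 of 12 markers were under 10 CPM in every library. Itgb3, the megakaryocyte marker with the highest mean, had 43.4 and 15.5 CPM in KI and 37.9 and 41.3 CPM in KD. Vwf, on both lists, had 17.9 and 4.63 CPM in KI and 5.80 and 3.63 CPM in KD.

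Markers of maturing myeloid and erythroid cells were lower in the same libraries as Ets1 and Erg. The 12 late neutrophil markers, such as S100a9, summed to 17000 and 17664 CPM in KI and 3780 and 1846 CPM in KD, with 12 of 12 negative, a median of -2.67 and 11 with both KD libraries lower. The 12 erythroid markers summed to 491 and 484 CPM in KI and 69.4 and 3.71 CPM in KD. Their median was -3.63, 12 of 12 were lower in both KD libraries, and Epor and Hba-a1 had 0 counts in KD replicate 2. Over all genes tested, both KD libraries were lower for 23.5%. The part of maturing cells in the values of Ets1, Erg, Ets2 and Fli1 was not tested. edgeR called 0 of the markers on any list, as it called 0 of all 13822 genes, with 11 of the erythroid and 9 of the late neutrophil markers at an unadjusted p under 0.05. DESeq2, which called 1.09% of all genes, called 15 genes of the partner, input, target and marker lists, all markers. They were Cd3e, Il18rap, Klf1, Hbb-bt, Rhd, Ermap, Ngp, Ltf, Camp, Lcn2, Ly6g, S100a8, S100a9, Cd177 and Retnlg. The lists were chosen with earlier results of these data known, so nothing is read from these calls.

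**Figure D5:**
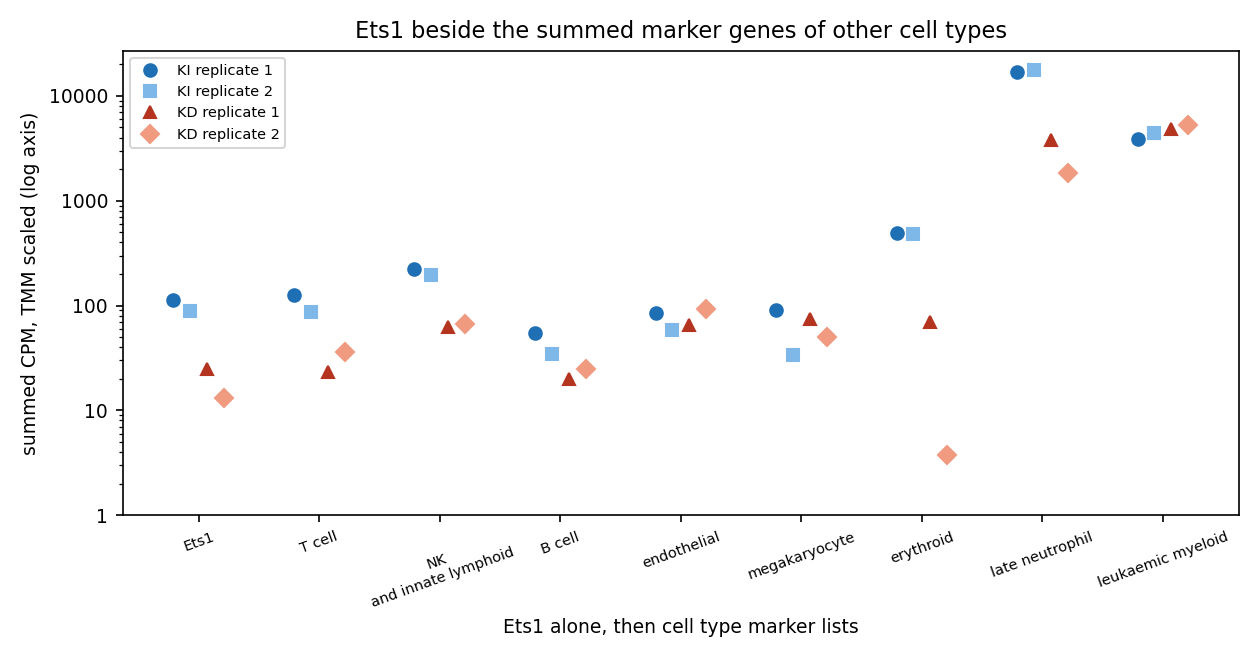
Normalised read count of Ets1 and the summed normalised read counts of 8 lists of cell type markers (CPM, TMM scaled, log axis) in each library. Ets1 and the T cell, natural killer, B cell, erythroid and late neutrophil sums lie lower in each KD library than in either KI library, and the leukaemic myeloid sum is higher in both. Cd79b alone gave 28.1 of the 34.5 CPM of the B cell sum in KI replicate 2, and of the 4 B cell markers tested 0 lay lower in both KD libraries.

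The library kit keeps the strand but its setting in the counting is not given, so sense and antisense reads cannot be told apart for any single gene here. Among 38 long non-coding RNA genes nested on the other strand of a protein-coding gene of at least 100 CPM, the median was 0.314 CPM against 184 CPM for the hosts, and 0 exceeded the host. These CPM are scaled by library size only. Hosts were picked by their high level, so few nested genes could exceed them, and these values do not settle the strand setting. Etv6 holds 1 such nested gene, Gm17089, with 7 and 3 counts in KI and 1 and 3 counts in KD. Elf1, Elk3 and Gabpa overlap the ends of Wbp4, Cdk17 and Atp5j, which had 94 to 767 counts per library, so reads at those ends are uncertain.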

How the data were processed

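RNA was measured in 4 libraries (TruSeq Stranded mRNA, per the labels), 1 per mouse. The authors deposited raw counts per Ensembl gene, and the submitters' processing notes name TopHat2 2.0.10, SAMtools, HTSeq, DESeq and GRCm38. Not given in the sources used here are the strand setting, the annotation release and any filter. Entries naming no gene, 93.2% to 97.9% of each total, were left out. Most of them were alignments that were not unique, 183230480 and 219396301 in KI and 154304931 and 122218455 in KD. The 1616 columns of the 4 chromatin tables name neither antibody nor mouse and are not used here.

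Counts were analysed in R 4.3.3 with edgeR 4.0.16 (filterByExpr, 13822 genes; TMM factors 0.957, 0.778, 1.19 and 1.13; glmQLFit and glmQLFTest, genotype only; Benjamini-Hochberg at 0.05). The floor of 3 counts equals 0.696, 0.356, 0.212 and 0.259 CPM. DESeq2 1.42.0, limma 3.58.1 (voom), other scalings and filters, a replicate block and leaving out each library were alternatives. The count intervals are Clopper-Pearson intervals at 95% and cover counting error only. With 4 mice, p-values reflect only how these animals differed.

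The members and lists were chosen with earlier results of these data known. Named were the 9 members, the other ETS genes that passed the filter, Gfi1, and from each list the 2 genes of largest fold change and the 1 of highest mean CPM, some of which are not reported here. Markers named by their counts near 0, and Ptprc, Itgam, Kit, Csf2rb, Eif2s3y and Xist, were chosen after their values were seen. Promoters are RefSeq's, GRCm38.p6.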

Additional observations from a re-analysis of the deposited data

How the results depend on the processing

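The count of ETS members called was 0 in edgeR and 1 (Ets1) with no low-count filter, with DESeq2, without KI replicate 2 and without KD replicate 1, a range of 0 to 1 over the fits that left out 1 library. The median log2 fold change of the members, -0.27, was -0.18 with RLE scaling, -0.34 with upper quartile scaling, 0.18 with library size only, -0.10 with no low-count filter, -0.34 with at least 5 CPM in 2 libraries and -0.18 with DESeq2, and its range with 1 library left out was -0.37 (KI replicate 1) to 0.092 (KI replicate 2). Of the other ETS genes 0 were called, and 1, Ehf, without KI replicate 2 (-3.87), a range of 0 to 1. Calls in the partner, input, target and marker lists, 0 in edgeR, were 19 with no low-count filter, 15 with DESeq2, 4 with the replicate block and 4 to 15 with 1 library left out. Over all genes the calls, higher and lower, were 0 and 0 in edgeR, 29 and 140 of 30472 with no low-count filter, 5 and 137 with DESeq2, 0 and 7 with the block, and 149 and 104, 13 and 774, 3 and 79, and 10 and 29 without KI replicates 1 and 2 and KD replicates 1 and 2. A lone library in a group was assumed to vary like the other group. The causes were not tested.

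Some differences of the other ETS genes turned sign. Elk1 (0.11) was -0.0040 with upper quartile scaling, -0.17 without KI replicate 2 and -0.052 without KD replicate 1, in a range of -0.17 to 0.70. Elk4 (-0.13) was 0.30 with library size only, 0.045 with no low-count filter and 0.11 without KI replicate 2, in a range of -0.15 to 0.11 with 1 library left out. Erf (-0.01) was 0.064 with RLE scaling and DESeq2, 0.41 with library size only, 0.18 with no low-count filter, and 0.073, 0.10 and 0.15 without KI replicate 1, KI replicate 2 and KD replicate 1, in a range of -0.19 to 0.15. Etv3 (0.06) was -0.066 with upper quartile scaling, -0.059 with at least 5 CPM, -0.25 without KI replicate 2 (range -0.25 to 0.69) and -0.0056 with library size only after leaving out the 3 predicted loci, a setting chosen after seeing the data. Spib (-2.04) was 0.13 without KI replicate 1, in a range of -2.88 to 0.13.

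The labels tie the replicate numbers to no litter, batch or day, but both replicates 1 had Y-linked transcripts and both replicates 2 had Xist. Differences between replicates 1 and 2 correlated at 0.27 between the genotypes over 13822 genes, with 2 pairs. With the replicate block the members' median was -0.24 and 0 members were called. Levels per length, and their alternative by longest transcript, were not run because exon lengths were not used here.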

Other observations

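Within 500 kb of the 9 ETS genes, RefSeq places 53 other protein-coding genes that the count tables hold, and 40 of them passed the filter. Of these, 16 had positive and 24 negative log2 fold changes, with a median of -0.11, and edgeR called 0. The genes named here were chosen after their values were seen. Beside Erg and Ets2, the chromatin-binding gene Brwd1 had 68.2 and 76.3 CPM in KI and 73.8 and 64.2 CPM in KD, with a log2 fold change of -0.07 ± 0.27. Beside Ets1 and Fli1, the potassium channel gene Kcnj5 had 29 and 11 counts in KI and 7 and 9 counts in KD. Kcnj5, like Kcnj6, Ntn4 and Pcdh8, passed the filter through its KI counts alone, so the negative sign of these genes was set by the filter. In the Elf1 neighbourhood, Kbtbd7, a ubiquitin ligase adaptor, had 36.9 and 39.2 CPM in KI and 21.2 and 13.4 CPM in KD, lower in both KD leukaemias.

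App, the amyloid precursor gene that lies 88883 bp from Gabpa, had 940 and 8 counts in the KI leukaemias and 4067 and 3976 counts in the KD leukaemias, or 218 and 0.949 CPM against 288 and 343 CPM. KI replicate 2 had nearly no App counts while Gabpa there had 750 counts, 89.0 CPM, its highest normalised count of the 4 libraries. Atp5j, which overlaps the start of Gabpa, had 39.2 CPM there, also its highest. Why App is low in that leukaemia was not tested.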
